A study of Mus musculus with 48 samples.

Results

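Ovariectomy was examined in mice of the FCG model that carry XY sex chromosomes and ovaries. The model combines XX or XY chromosomes with ovaries or testes. In it Sry, the testis-determining gene, is missing from the Y chromosome (XY-), so an XY- mouse without the Sry transgene develops ovaries, and an XY- mouse with it (XY-;SryTg) develops testes. The libraries were chosen by the genotype label XY- without the transgene, which gave 12 of the 48 liver RNA-seq libraries of the series, 6 from gonadectomized mice (GDX) and 6 from mice with intact gonads, with 1 library per mouse. All 12 mice were fed a high-fat diet (HFD) with 60% of calories from fat that began at 15 to 17 weeks of age. The GDX mice had their ovaries removed at 75 days of age and were fed the HFD for 15 weeks. The intact mice kept their ovaries and were fed it for 11 weeks, and no sham operation is named for them. The lengths are those of the sample labels, and the methods of the study give other lengths for both arms, also with the GDX arm fed for longer. Gonadectomy therefore came together with a longer HFD, a higher age at collection and a separate cohort, and the parts of these in any difference below cannot be told apart.

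Ovaries act on the liver through estrogens, which bind the estrogen receptor made by hepatocytes, and through the pituitary, where gonadal steroids set the rhythm of growth hormone (GH) release. In male rodents GH comes in pulses with gaps between them, and in females it stays nearly continuous. The GH receptor activates the transcription factor STAT5, and this difference in rhythm keeps a set of male-biased genes (major urinary proteins, Cyp4a12 and Cyp2d9) and a set of female-biased genes (Cyp2b, Cyp2c and Cyp3a members, flavin monooxygenases, the repressor Cux2) at unlike levels in the sexes. Removal of the testes is known to move the male liver towards the female pattern, and loss of ovarian estrogen is known to favour fat storage.

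Reads counted on genes ranged from 13071874 to 19638619 in the GDX and from 15216661 to 20045141 in the intact mice, so that 3 reads, the smallest count taken as shown, equal 0.150 to 0.230 CPM (read counts scaled to library size). That floor covers counting error and nothing else. The 2 arms also differed in library make-up. Reads that fell outside annotated genes made up 9.98% to 10.9% of all reads in the GDX and 3.59% to 5.42% in the intact libraries, and reads mapped to several places made up 8.59% to 10.1% and 11.5% to 13.4%. Neither measure overlapped between the arms (exact two-sided permutation test, p = 0.002165, the smallest that 6 against 6 mice allow, and 0.008117 after Benjamini-Hochberg adjustment over 15 measures). The intact libraries varied more among themselves, with a median SD of 0.353 over genes on the log2 CPM scale against 0.183 in the GDX libraries, and 3 of them, intact mice 4, 5 and 6, had the lowest share outside genes (3.59% to 4.24%). The labels were checked on sex chromosome genes. The Y-linked genes Ddx3y (44.2 to 75.1 CPM), Kdm5d, Uty and Eif2s3y were read in all 12 mice, and Xist, the RNA that coats the inactive X chromosome, lay between 0.437 and 7.1 CPM. Of these 5 genes, Xist was higher after GDX (1.56 ± 0.46, adjusted p = 0.0039), and Eif2s3y and Uty were lower (-1.10 ± 0.36 and -0.71 ± 0.28). None of these 3 calls was kept with 1 surrogate variable or without intact mice 4 to 6, and without GDX mouse 4 alone the values of Xist and Uty were 1.0 and -0.66 with no call, as was Uty without intact mouse 5 (-0.60) or 6 (-0.64).

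GDX and intact livers differed over much of the transcriptome. Of 15575 genes tested, 9186 passed an adjusted p of 0.05 (59.0%), 4670 of them higher (30.0%) and 4516 lower (29.0%) after ovariectomy, by the quasi-likelihood test of edgeR, adjusted over all tested genes after Benjamini and Hochberg. A change of at least 2-fold was seen in 1120 genes that rose (7.19%) and 1931 that fell (12.4%), and the CPM of 5264 genes (33.8%) did not overlap between the 6 GDX and the 6 intact mice, higher in 2326 (14.9%) and lower in 2938 (18.9%). With library totals in place of TMM scaling, the median log2 fold change over all genes moved from 0.08 to 0.32 and the split became 6724 higher (43.2%) and 3164 lower (20.3%). The values below are relative to TMM scaling.

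The size of the difference followed transcript length. Among genes with transcripts of at most 1000 bases the median log2 fold change was -1.19 (796 genes, 75.6% of them lower), and among genes with transcripts over 5000 bases it was 0.48 (2424 genes, 58.8% of them higher). Across 13153 genes the Spearman correlation of log2 fold change with log2 length was 0.516, a description over genes that share the same 12 libraries. It was 0.475 for ovariectomy of XX mice and 0.379 for castration of XY mice. Loess offsets for GC content and transcript length brought it to 0.035. Because length, read share outside genes and arm moved together, each list below is given in 2 ways, by its calls in the main test and by its calls made the same way in 4 fits: the main test, the same with GC and length offsets, the same with 1 surrogate variable, and the same without intact mice 4 to 6. Of 13151 genes tested in all 4 fits, 2044 were called the same way in each (15.5%), 583 higher (4.43%) and 1461 lower (11.1%). With the share of reads outside genes as a covariate, which nearly repeats the arm, 3 genes were called (0.0193%).

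**Figure D1:**
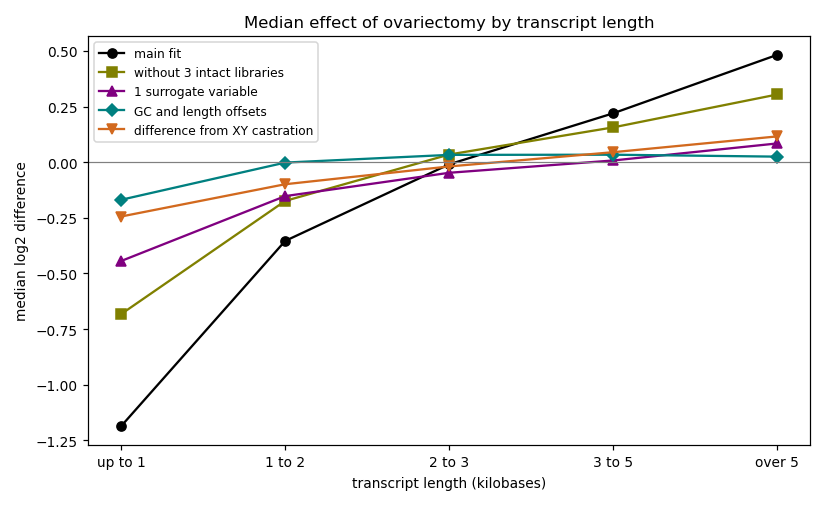
Median log2 difference (vertical axis) of genes binned by transcript length in kilobases (horizontal axis) for 4 fits of the ovariectomy effect in XY mice and for its difference from the castration effect. The main test runs from -1.19 in the shortest to 0.48 in the longest bin, and the fit with GC and length offsets from -0.17 to 0.02.

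Esr1, the estrogen receptor alpha of hepatocytes, was higher after the ovaries were removed. Its lowest, median and highest levels were 22.5, 27.9 and 32.6 CPM in intact and 41, 49.8 and 55.9 CPM in GDX mice. The groups did not overlap, the log2 fold change was 0.83 ± 0.18 with an adjusted p of 0.00014, and the call was made in all 4 fits. Prlr, the prolactin receptor, rose by 0.51 ± 0.20 (adjusted p = 0.029), a call that was lost without GDX mouse 1 (0.47) or intact mouse 4 (0.40), and Insr, the insulin receptor, rose by 0.76 ± 0.17 (0.00019). Ghr, the GH receptor, and Gcgr, the glucagon receptor, fell by 0.41 each on the log2 scale (adjusted p = 0.0027 and 0.0011), and neither call was kept with library totals. In all, 4 of 11 tested hormone receptors rose and 2 fell (median log2 fold change 0.25), with Esr1 alone called in all 4 fits. Of 16 tested genes of the GH, STAT5 and IGF1 axis, 6 rose and 3 fell (median 0.26). Among all tested genes 30.0% rose and 29.0% fell, and the rises in both lists came at a share near that. Igfals, which holds IGF1 in a stable complex in serum, was called in all 4 fits, from 39.2, 42.8 and 68.9 CPM in intact to 73.7, 77 and 89.9 CPM in GDX mice (0.78 ± 0.18, adjusted p = 0.00028). Igf1 itself did not pass the test (0.25 ± 0.13, adjusted p = 0.077), and Igfbp1, an IGF-binding protein induced in fasting, was lower (-1.13 ± 0.45, adjusted p = 0.029) with a value of -0.47 without intact mouse 4, where the call was lost, as it was without GDX mouse 1, 3 or 5 (-1.05, -1.05 and -1.09).

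**Figure D2:**
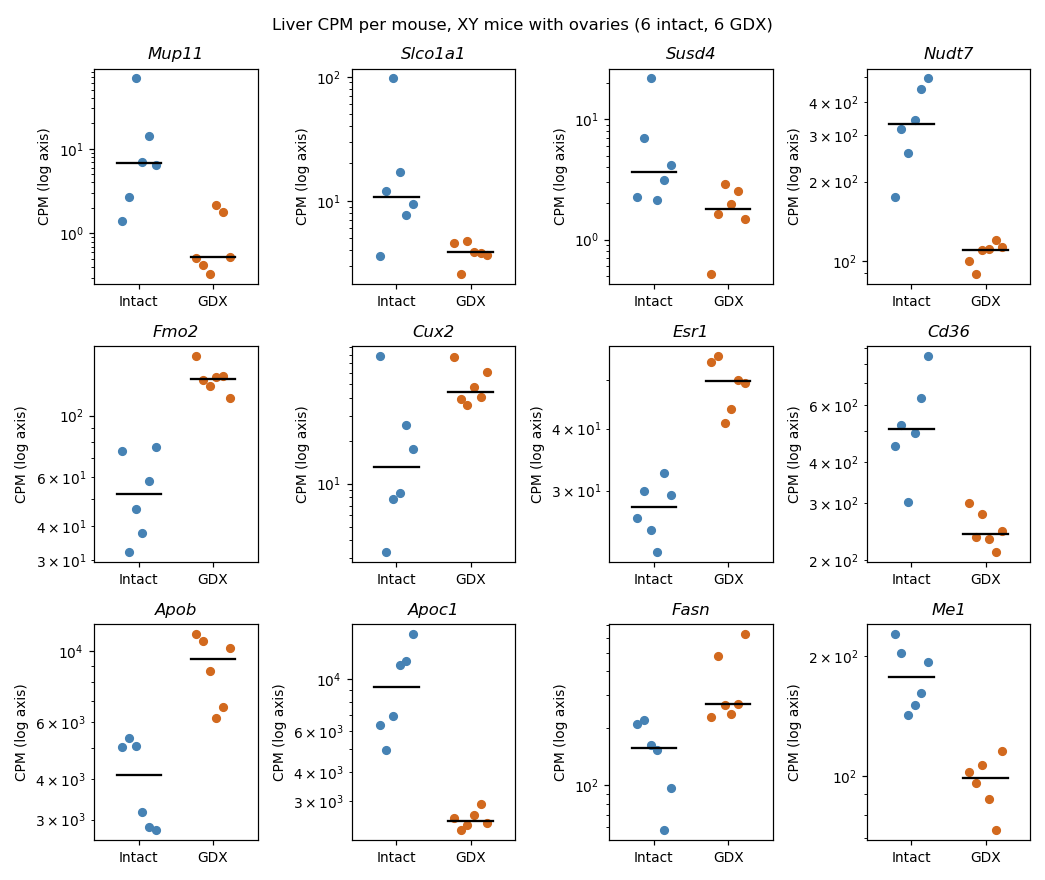
CPM of 12 genes on log axes in each of the 6 intact (blue) and 6 GDX (orange) XY mice with ovaries, with the median as a black line. Esr1, Fmo2 and Apob lie higher in every GDX mouse, Nudt7, Apoc1 and Me1 lower, and Cux2, Slco1a1 and Susd4 overlap.

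Male-biased liver genes were mostly lower after ovariectomy in the main test. Of 33 tested, 19 fell and 2 rose (median log2 fold change -1.08, against 0.08 over all tested genes), where 29.0% of all tested genes fell. With the length offsets 8 of 32 fell and 1 rose (median -0.60), and 24.0% of all genes fell in that fit. The calls were lower in all 4 fits for 7 (Mup11, Mup20, Mup3, Slco1a1, Susd4, Cyp2u1 and Nudt7), where 11.1% of all genes were. The major urinary proteins are small lipocalins that carry pheromones into urine. Mup11 ran from 1.41, 6.69 and 67.7 CPM in intact to 0.327, 0.519 and 2.14 CPM in GDX mice. The groups overlapped in the lowest intact mice, the log2 fold change was -4.08 ± 0.90 (adjusted p = 0.00022), and without intact mouse 3, the highest, it was -2.68. Mup3 had 3413, 5233 and 12128 CPM in intact and 854, 1064 and 1332 CPM in GDX mice, and Mup20, which encodes the male pheromone darcin, had 89.3, 232 and 363 and 24.6, 28.5 and 38.3 CPM. Neither overlapped, with log2 fold changes of -2.63 ± 0.40 and -2.89 ± 0.61 (adjusted p = 1.5e-06 and 0.00012). The Mup family includes near-identical copies, and how alike the transcripts of the genes named here are was not tested. Reads mapped to several places were given to no gene, and other reads may have gone to a wrong copy. The share of reads mapped to several places was 11.5% to 13.4% in intact and 8.59% to 10.1% in GDX mice. The value of a single Mup gene is therefore uncertain.

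The promoters of Mup11 and Mup3 are shown because both genes fell in all 4 fits and their sequences share a run that spans the annotated start. Each is 250 bases before to 50 bases after the gene's start, 5′ to 3′ on the gene's strand, from RefSeq on GRCm38.p6, at chr4:60662346-60662645 (minus strand) for Mup11 and chr4:62087268-62087567 (minus strand) for Mup3, and capitals mark the longest run the 2 windows share, 28 bases.
Mup11: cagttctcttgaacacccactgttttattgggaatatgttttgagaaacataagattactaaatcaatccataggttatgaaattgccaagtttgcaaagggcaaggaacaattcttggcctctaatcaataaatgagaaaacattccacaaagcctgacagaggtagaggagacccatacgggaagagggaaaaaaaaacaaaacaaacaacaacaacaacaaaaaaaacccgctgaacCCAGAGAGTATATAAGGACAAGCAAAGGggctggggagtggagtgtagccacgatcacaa
Mup3: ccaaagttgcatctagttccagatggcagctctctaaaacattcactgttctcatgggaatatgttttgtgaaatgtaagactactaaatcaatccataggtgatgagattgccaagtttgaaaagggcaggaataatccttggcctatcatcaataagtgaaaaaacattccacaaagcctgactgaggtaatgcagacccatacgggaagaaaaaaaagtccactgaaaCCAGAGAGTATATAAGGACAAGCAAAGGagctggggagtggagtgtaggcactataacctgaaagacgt
A match of sequence is a description and does not say which factor binds there.

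The other 4 male-biased genes called in all 4 fits are no Mup copies. Nudt7, a peroxisomal hydrolase of coenzyme A, had 175, 329.8 and 494 CPM in intact and 88.7, 110.2 and 120.1 CPM in GDX mice without overlap (-1.66 ± 0.30, adjusted p = 1.3e-05). Slco1a1, an organic anion transporter, had 3.62, 10.7 and 97 and 2.55, 3.84 and 4.78 CPM (-2.67 ± 0.67, 0.0009), and Susd4, a complement regulator, 2.15, 3.65 and 22 and 0.513, 1.81 and 2.88 CPM (-1.90 ± 0.42, 0.00024). In both genes intact mouse 3 stood far above the rest and the groups overlapped, and without that mouse the values were -1.4 and -1.0 and both calls stayed. Cyp2u1, a cytochrome P450 of fatty acids, fell too (-1.05 ± 0.31, 0.0039). Its CPM overlapped, at 1.45 to 7.58 in intact and 1.21 to 2.58 in GDX mice. Bcl6, a repressor that opposes STAT5 at female-biased genes, was the highest of the male-biased list, with 12.7, 17.2 and 19.5 CPM in intact and 23.7, 32.7 and 52 CPM in GDX mice (1.09 ± 0.33, adjusted p = 0.0045), and it lost its call with the surrogate variable (0.81, adjusted p = 0.14).

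Female-biased liver genes were called in both directions. Of 36 tested, 9 rose and 3 fell in the main test (median 0.28), shares under the 30.0% and 29.0% of all tested genes. With the length offsets 10 rose and 1 fell (median 0.59), where 19.2% of all genes rose and 24.0% fell. The gene called in all 4 fits was Fmo2. Fmo2, a flavin monooxygenase, had 32, 52 and 77 CPM in intact and 116, 136 and 164 CPM in GDX mice, with no overlap (1.33 ± 0.28, adjusted p = 9.5e-05). Cux2, a repressor of male-biased genes, had 3.3, 13.1 and 78 and 35.7, 44 and 77.5 CPM (1.09 ± 0.45, 0.034). In the intact group 5 of 6 mice lay below all GDX mice and the other, intact mouse 1, lay at their top, and the call was lost in 6 of the 12 fits that left out 1 mouse (0.87 to 1.06) and in the 3 other fits. Ntrk2, a neurotrophin receptor, rose from 0.432, 1.76 and 5.62 to 7.53, 8.93 and 12.6 CPM without overlap (1.92 ± 0.50, 0.0014). The paralogs Cyp3a41a and Cyp3a41b, steroid hydroxylases of the female liver, rose by 2.59 ± 0.84 and 2.63 ± 0.96 (0.0079 and 0.018) from medians of 0.57 and 0.126 CPM, the second under the floor, while their relative Cyp3a44 fell by 1.77 ± 0.51 on the log2 scale (0.0035). Reads of these copies can also have been given to no gene or exchanged.

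Castration of XY mice with testes, on the same diets and with no mouse in common, served to ask where removal of ovaries and removal of testes differ on XY chromosomes. The 2 effects differed in 337 genes (2.16% of 15575), with 162 higher (1.04%) and 175 lower (1.12%) for ovariectomy than for castration, in the test of the difference itself. Of the male-biased list 22 of 33 tested genes differed, all with the lesser fall after ovariectomy, or with a rise where castration gave a fall, and of the female-biased list 21 of 36 differed, all lower for ovariectomy than for castration. Castration lowered all 33 male-biased genes (median -3.80) and raised 28 of the 36 female-biased genes (median 2.46), where 28.5% of all tested genes were lower and 27.9% higher. The length trend was weaker in this difference, with a Spearman correlation of 0.234 with length.

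The levels show what lay behind these differences. Mup7 had 295, 2799 and 7104 CPM in intact and 1.3, 2.93 and 3.49 CPM in GDX mice with testes, against 8.94, 21.6 and 39.6 and 2.06, 2.4 and 6.56 CPM in mice with ovaries. After gonadectomy the 2 kinds of XY mice overlapped, and the effects differed by 7.47 ± 1.03 on the log2 scale (adjusted p = 6.9e-06). Mup14, Mup11, Mup1, Mup18 and Serpina1e, a serine protease inhibitor, followed, with differences of 7.17 ± 0.97, 6.46 ± 1.33, 6.33 ± 1.31, 5.89 ± 1.22 and 5.30 ± 0.94 and adjusted p of 5.1e-06, 0.0035, 0.0036, 0.0038 and 0.0005. Cux2 had 0.215, 0.462 and 0.601 CPM in intact and 43.6, 60.6 and 87.4 CPM in GDX mice with testes, so that it rose by far more after castration than after ovariectomy (difference -5.95 ± 0.79, adjusted p = 3.5e-06). The female-biased cytochromes Cyp2c69, Cyp2c40 and Cyp2b13 and the plasma protein gene A1bg gave differences of -7.25 ± 1.01, -6.75 ± 0.79, -5.85 ± 0.58 and -5.67 ± 1.4 (adjusted p = 6.9e-06, 1.8e-07, 1.1e-08 and 0.017). A1bg had 4 reads in all 6 intact mice with testes together, so its size is imprecise. For Bcl6 the signs were opposite, with a rise after ovariectomy and a fall of 0.76 on the log2 scale after castration (adjusted p = 0.041, difference 1.85 ± 0.46, 0.022). Esr1 rose in both, by 0.83 after ovariectomy and 1.65 after castration, and the difference of -0.82 ± 0.25 did not pass (adjusted p = 0.071).

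**Figure D3:**
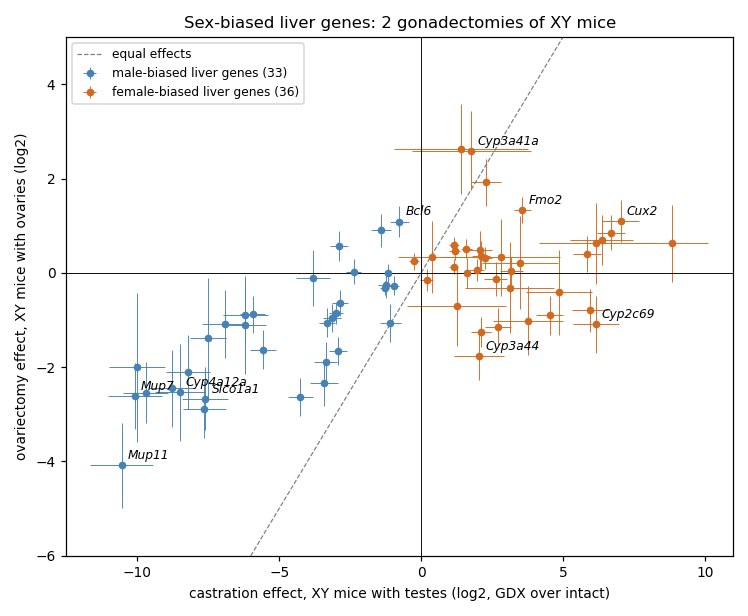
Log2 fold change (GDX over intact) after castration of XY mice with testes (horizontal axis) and after ovariectomy of XY mice with ovaries (vertical axis) for 33 male-biased and 36 female-biased genes, with SE as bars and a dashed line of equal effects. All 33 male-biased genes lie left of 0, and Mup11 lies lowest on the vertical axis at -4.08.

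Ovariectomy of XX mice is the most similar comparison, with the same gonad, the same diets and other mice, and it asks whether the sex chromosomes change the effect. No gene passed the test of the difference (0 of 15575, edgeR), 641 had an unadjusted p under 0.05 (4.12%), and DESeq2 called 8. The 2 smallest adjusted p belonged to Omd, a matrix proteoglycan (-3.11 ± 0.61, adjusted p = 0.126), and Gpc1, a heparan sulfate proteoglycan (-2.44 ± 0.51, 0.131), which were chosen after their values were seen. Gpc1 had 2.27, 5.88 and 14.3 CPM in intact and 3.28, 4.57 and 6 CPM in GDX XY mice, and rose by 2.01 on the log2 scale in XX mice. Omd fell in XY mice (-1.86 ± 0.44) and rose by 1.24 in XX mice. The lists gave different counts in XX mice: 9 of the 33 male-biased genes fell and 6 rose (median -0.45), 16 of the 36 female-biased genes fell and 3 rose (median -0.44), and 16 of 24 interferon-stimulated genes fell where 3 fell and 2 rose in XY mice. Over all tested genes 28.4% fell and 26.3% rose in XX mice. No member of these lists differed between the 2 effects, so the counts are not shown to differ.

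The lists of lipid metabolism showed no common direction. Of 19 tested genes of de novo lipogenesis, 5 rose and 3 fell (median 0.29), shares under the 30.0% and 29.0% of all tested genes. Fasn, the fatty acid synthase, had 57.9, 158 and 220.0 CPM in intact and 229.8, 267 and 627 CPM in GDX mice without overlap (1.23 ± 0.35, adjusted p = 0.0031), and with the length offsets its log2 fold change was 0.29 (adjusted p = 0.37). Acaca, which makes malonyl-CoA, rose by 1.01 ± 0.23 (0.00039) and was at 0.33 (0.076) with the offsets. Me1, malic enzyme, which makes NADPH for lipogenesis, was the lipogenic gene called in all 4 fits, and it was lower, with 143, 177 and 227 CPM in intact and 73.2, 99.1 and 115 CPM in GDX mice (-0.89 ± 0.18, 6.1e-05). Nr1h3, the liver X receptor alpha, fell (-0.71 ± 0.18, 0.00093). Scd1, a fatty acid desaturase, Srebf1, the lipogenic transcription factor, and Pparg did not pass (-0.66 ± 0.41, 0.44 ± 0.24 and 0.35 ± 0.20, adjusted p = 0.17, 0.11 and 0.12), and Srebf1 was called without intact mouse 1 (0.61). Pnpla3, a lipid droplet protein that the study examines across sexes, had 0.567, 0.802 and 3.51 CPM in intact and 0.775, 1.14 and 4.51 CPM in GDX mice, with wide overlap (0.61 ± 0.58, 0.37). The study's own comparison of Pnpla3 between FCG mice with intact and with removed ovaries, XX and XY together, gave no significant difference. Nfya, a subunit of the CCAAT-binding factor NF-Y, rose from 11, 14.2 and 17.1 to 17.3, 19.6 and 22.9 CPM (0.51 ± 0.13, 0.0014), and with the surrogate variable its value was 0.19 (0.29).

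Genes of fat uptake, storage and oxidation were called in both directions, and the few calls made in all 4 fits came at a share near that of all genes (11.1% lower and 4.43% higher). In the main test 30.0% of all tested genes rose and 29.0% fell. Of 28 lipid droplet and storage genes, 3 rose and 8 fell (median 0.01), and Cd36, Mogat1, Plin3 and Abhd5 fell in all 4 fits. Cd36, a fatty acid uptake receptor, had 302, 507 and 847 CPM in intact and 211, 239.9 and 301 CPM in GDX mice, with a narrow gap between them (-1.11 ± 0.22, adjusted p = 5.4e-05). Mogat1, a monoacylglycerol acyltransferase that rises in fatty liver, Abhd5, the activator of the lipase ATGL, and Plin3, a droplet coat protein, had log2 fold changes of -1.68 ± 0.40, -1.17 ± 0.18 and -0.81 ± 0.17 (adjusted p = 0.00051, 1.3e-06 and 8.8e-05). Plin4, another coat protein, was the highest of the list (1.47 ± 0.50, 0.011) and lost its call in the 3 other fits. Of 34 genes of fatty acid oxidation and PPARalpha targets, 4 rose and 11 fell (median -0.09, and 0.15 with library totals), with 4 called lower in all 4 fits, Ehhadh, Hadh and Acads among them. Hadh, Acads and Ehhadh, enzymes of beta-oxidation in mitochondria and peroxisomes, fell (-1.07 ± 0.20, -0.76 ± 0.13 and -0.63 ± 0.13). Acadvl, which takes very long chains, was the highest called member (0.52 ± 0.16, 0.0055), and Ppara itself did not pass (0.39 ± 0.18, 0.06), though it did in 4 of the 12 fits that left out 1 mouse (0.43 to 0.51).

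The apolipoproteins split by gene. Apob, the large scaffold protein of very low density lipoprotein, had 2780.1, 4110.1 and 5362 CPM in intact and 6174, 9418 and 11246 CPM in GDX mice without overlap (1.14 ± 0.20, adjusted p = 8.1e-06). Apoc1 and Apoc4, small proteins of the same particles, fell (-1.92 ± 0.28 and -1.87 ± 0.29, adjusted p = 1.1e-06 and 2.2e-06), and Apoc1 went from 4997, 9232 and 15532 to 2257, 2483 and 2922 CPM. All 3 were called in all 4 fits, and with the offsets they stood at 0.50, -0.77 and -0.84. Their transcripts measure 13934, 487 and 464 bases. In all, 4 of 21 tested genes of this list rose and 5 fell (median 0.10), where 30.0% of all tested genes rose and 29.0% fell. Among 24 genes of cholesterol synthesis and SREBP2 targets 2 rose and 7 fell (median -0.16, and 0.08 with library totals). Stard4, a sterol carrier, was called lower in all 4 fits (-0.47 ± 0.14, 0.0048). Srebf2, the master factor of the pathway, rose by 0.52 ± 0.17 (0.0075) in the main test and was at -0.071 with the length offsets, and Idi1, isopentenyl diphosphate isomerase, was lowest (-1.05 ± 0.39, 0.02) and lost its call without intact mouse 6 (-0.93).

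**Figure D4:**
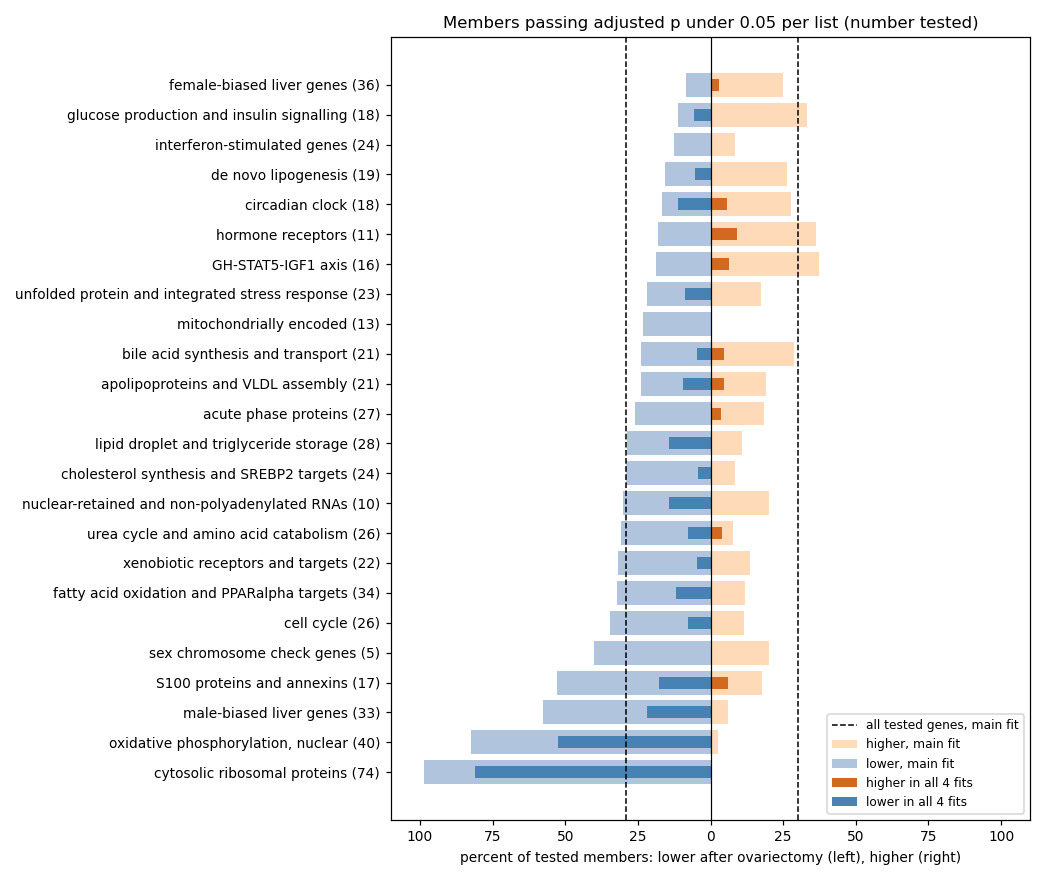
Percent of tested members of each pathway list that were lower (left) or higher (right) after ovariectomy in the main test (pale bars) and in all 4 fits (dark bars), with the number tested in brackets and dashed lines at 29.0% and 30.0%, the shares over all tested genes. Ribosomal protein, oxidative phosphorylation and male-biased genes reach farthest to the left.

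Other liver functions each had 1 to 3 members called in all 4 fits. Of all genes 30.0% rose and 29.0% fell in the main test, and 4.43% rose and 11.1% fell in all 4 fits. The counts below lie near or under these shares. Of 21 genes of bile acid synthesis and transport 6 rose and 5 fell, and besides Slco1a1 the one called in all 4 fits was Nr1h4, the bile acid receptor FXR, which rose slightly from 133, 141 and 165 to 143, 177 and 190.2 CPM with overlap (0.26 ± 0.10, adjusted p = 0.024) and lost its call without GDX mouse 1 (0.23) or 3 (0.24). Cyp7a1, the rate-limiting enzyme of bile acid synthesis, did not pass (-0.65 ± 0.35, 0.1), and without intact mouse 1 or 2 it did (-0.79 and -0.79). Cyp17a1, a steroid hydroxylase, was at 0.00 ± 0.32 (0.99). Of 26 genes of the urea cycle and amino acid catabolism 2 rose and 8 fell (median -0.11, and 0.14 with library totals). Asl, argininosuccinate lyase, rose from 223, 286 and 363 to 374, 463 and 555 CPM (0.68 ± 0.16, 0.00046) and Tdo2, which breaks down tryptophan, fell from 1248, 2095 and 3112 to 694, 788 and 1016 CPM (-1.31 ± 0.22, 6.2e-06). Neither overlapped. Of 22 xenobiotic receptors and targets 3 rose and 7 fell, with Nqo1 called lower in all 4 fits (-1.03 ± 0.20, 3.3e-05), and of 18 genes of glucose production and insulin signalling 6 rose and 2 fell, with the kinase Akt2 lower in all 4 fits (-0.25 ± 0.06, 0.00057) but at -0.00 with library totals. Of 27 acute phase proteins 5 rose and 7 fell. Itih3 was the one called in all 4 fits (0.77 ± 0.17, 0.00025), and Saa2 was lowest (-2.14 ± 0.82, 0.024), a value that was -0.71 with no call without intact mouse 5.

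Stress, clock and proliferation genes held few calls made in all 4 fits. For each count below, the shares over all genes were 30.0% higher and 29.0% lower in the main test. In all 4 fits they were 4.43% and 11.1%. Of 23 genes of the unfolded protein response 4 rose and 5 fell, and the chaperone factors Manf and Dnajb9 fell in all 4 fits (-1.50 ± 0.26 and -1.39 ± 0.23, adjusted p = 7.3e-06 and 3.9e-06), while the chaperone Hsp90b1 was the highest (0.62 ± 0.16, 0.00091). Of 18 clock genes 5 rose and 3 fell. The repressors Nr1d2 and Bhlhe41 fell in all 4 fits. Nr1d2 had 182, 243 and 388 CPM in intact and 85.1, 98.3 and 109 CPM in GDX mice without overlap (-1.45 ± 0.20, 6.8e-07), and Bhlhe41 changed by -1.71 ± 0.31 (1.4e-05). Per2 was the highest of the list (0.97 ± 0.20, 8.0e-05). The hour of collection is not given in the sources used here, and its part in these values was not tested. Of 26 cell cycle genes 3 rose and 9 fell, with Ccne1 and Pcna lower in all 4 fits (-1.39 ± 0.23 and -1.22 ± 0.21), and of 24 interferon-stimulated genes 2 rose and 3 fell, none in all 4 fits. S100 proteins and annexins, calcium-binding proteins often raised in fatty liver, had 3 of 17 members higher and 9 lower (median -0.60). Over all tested genes 30.0% rose and 29.0% fell. With the length offsets 3 rose and 6 fell (median -0.22), where 24.0% of all genes fell. Without intact mice 4 to 6, 1 rose and 3 fell, where 12.8% of all genes fell. Anxa6 was higher and S100a10, S100a1 and S100a16 lower in all 4 fits, where 4.43% of all genes rose and 11.1% fell. S100a10 had 130.0, 205 and 367 CPM in intact and 30, 46.3 and 61.6 CPM in GDX mice without overlap (-2.31 ± 0.38, 4.2e-06).

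Genes of translation and nuclear genes of respiration were mostly lower after ovariectomy. Of 74 cytosolic ribosomal protein genes 73 fell and none rose (median -1.92, and -1.10 with the length offsets), 70 of them without overlap (18.9% of all tested genes were lower without overlap), and 60 fell in all 4 fits. Rps25 went from 358, 773 and 2067 to 81.9, 92.6 and 114 CPM (-3.33 ± 0.48, adjusted p = 9.2e-07), and Rps24 and Rps12 were near it (-3.31 ± 0.47 and -3.27 ± 0.47). So were Rpl22l1 and Rps27l, which are not among the 74 (-3.52 ± 0.52 and -3.30 ± 0.48). Many of these genes have processed pseudogenes, so their counts are uncertain. The smallest called change was that of Rpl4, with a transcript of 1422 bases (-0.33 ± 0.08), against 683 bases for Rps25, and with the offsets it stood at 0.15. Of 40 nuclear genes of oxidative phosphorylation 33 fell and 1 rose (median -1.23), 21 of them lower in all 4 fits. With the length offsets 24 fell and 5 rose, and the median was -0.37. Ndufa4 had 547, 999.6 and 2474 and 116, 135 and 144 CPM (-3.18 ± 0.45, 8.9e-07), and the 1 that rose was Sdha, the catalytic subunit of succinate dehydrogenase (0.32 ± 0.12, 0.022), which lost its call without GDX mouse 1 (0.28). In the other gonadectomies 72 (ovariectomy of XX mice) and 71 (castration of XY mice) of the 74 ribosomal genes fell, and no member of the 2 lists passed a test of the difference between effects.

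These same lists followed library make-up among intact mice. The summed CPM of the 74 ribosomal genes was 29649 to 45191 in intact mice 4 to 6, 13249 to 16378 in the other 3 intact mice and 5785 to 6963 in the 6 GDX mice, in the reverse order of the share of reads outside genes. Without intact mice 4 to 6, 65 of the 74 still fell (median -1.22, with 12.8% of all genes lower in that fit). Of 13 mitochondrially encoded genes 3 fell and none rose (median -0.26), while with the length offsets 9 rose and none fell (median 1.04, with 19.2% of all genes higher and 24.0% lower in that fit), so no direction is given for them. The list of nuclear-retained and non-polyadenylated RNAs had 2 of 10 tested members higher and 3 lower (median -0.33). Over all tested genes 30.0% rose and 29.0% fell. The offsets need the length of a coding transcript and covered 7 of the 10 members. The others could not be called in all 4 fits. Of the 7 members covered, 1 fell in all 4 fits and none rose. Malat1 and Neat1 were the 2 that rose in the main test. With the surrogate variable 2 of the 10 rose (8.41% of all genes), and without intact mice 4 to 6 also 2 (11.9% of all genes). Malat1, a long nuclear RNA, had 292, 385 and 444 CPM in intact and 1803, 1842 and 1907 CPM in GDX mice (2.29 ± 0.16, adjusted p = 1.1e-13), and Neat1, the RNA of paraspeckles, 36.6, 80.1 and 137 and 247, 326 and 351 CPM (1.93 ± 0.29, 1.4e-06). Both moved with the share of reads outside genes, and its part in these results was not tested. Of the 10 largest rises among genes with non-overlapping CPM, 3 were AB041803, a long non-coding RNA, Rgr, a retinal G protein-coupled receptor, and Gpr17, an orphan receptor (2.32 ± 0.24, 2.34 ± 0.35 and 2.35 ± 0.32), all called in all 4 fits and all under 10 CPM in every mouse. Neb, Col27a1, Cep250 and Ccdc88b, with transcripts of 22489, 7612, 7979 and 4962 bases, followed (1.81 ± 0.32, 1.72 ± 0.28, 1.72 ± 0.27 and 1.72 ± 0.34), and with the offsets they stood at 0.71, 0.81, 0.90 and 1.10.

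**Figure D5:**
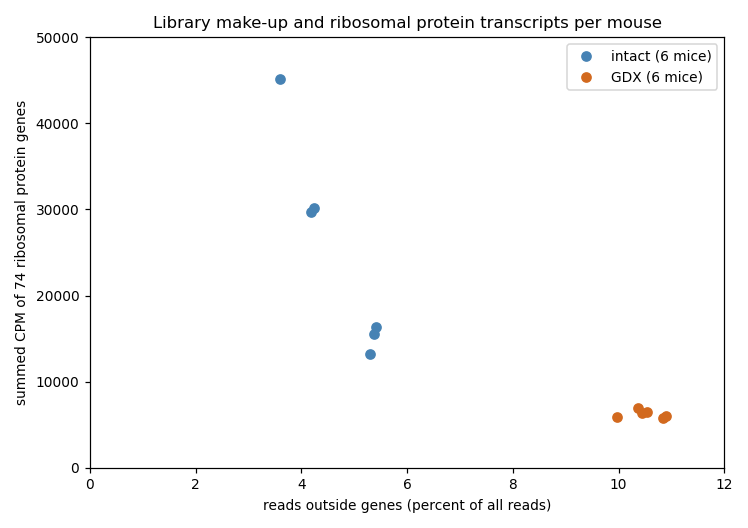
Summed CPM of 74 ribosomal protein genes (vertical axis) against reads outside genes as percent of all reads (horizontal axis) in each of the 12 mice. The GDX mice lie together at 9.98% to 10.9% and 5785 to 6963 CPM, and intact mice 4 to 6 lie highest at 29649 to 45191 CPM.

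Markers of other liver cells were measured beside these results. Hepatocyte markers summed to 82770 to 130400 and 90050 to 107400 CPM in intact and GDX mice, a difference that did not pass the exact permutation test (adjusted p = 0.11). Neutrophil markers summed to 106 to 990 CPM in intact and 54.5 to 111 CPM in GDX mice (exact permutation, adjusted p = 0.026). The mean difference of -292 CPM lost its call without any 1 of the 6 GDX mice and was -172 CPM without intact mouse 5. The highest 3 values, 357 to 990, were those of intact mice 4 to 6. S100a8, a neutrophil calcium-binding protein, fell from 19.5, 71.5 and 456 to 1.37, 8.24 and 16.3 CPM (-4.17 ± 0.82, adjusted p = 5.1e-05), and without those 3 mice the value was -2.11 (0.053). Of the 14 tested neutrophil markers 6 fell and 1, the receptor Csf3r, rose (1.20 ± 0.34, 0.0025), and none passed without intact mice 4 to 6. In bulk liver fewer cells of a type and less RNA per cell cannot be told apart. Of 22 stellate cell and matrix genes 8 rose and none fell (median 0.67), a share of rises near the 30.0% of all tested genes. Their sum was 541 to 662 CPM in GDX and 441 to 615 CPM in intact mice (exact permutation, adjusted p = 0.049), a call that was lost in 10 of the 12 cases that left out 1 mouse, all but those without GDX mouse 1 or intact mouse 4. Reln, a glycoprotein of stellate cells, had 26.5, 40.4 and 50.6 CPM in intact and 75.8, 96.7 and 115 CPM in GDX mice (1.29 ± 0.24, 1.7e-05) and was called in all 4 fits, and Col1a1, the main fibrillar collagen, rose by 1.46 ± 0.57 (0.025), with no call without GDX mouse 4 (1.27). With the surrogate variable 1 of the 22 was called (8.41% of all genes rose in that fit).

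Of 22 Kupffer cell and macrophage markers 2 rose and 4 fell (median -0.02, and 0.24 with library totals), with the lysozyme Lyz2 lowest (-1.62 ± 0.42, adjusted p = 0.0012) and the integrin Itgax highest (1.29 ± 0.47, 0.019), and neither was called with the surrogate variable or without intact mice 4 to 6. Of 19 lymphocyte markers 7 fell and none rose (median -0.43), where 29.0% of all tested genes fell, and the number that fell ran from 4 (without GDX mouse 3 or 6 or intact mouse 4 or 5) to 8 when 1 mouse was left out. Cd3d, a subunit of the T cell receptor complex, fell in all 4 fits from 1.04, 1.74 and 3.86 to 0.0654, 0.391 and 0.517 CPM (-2.60 ± 0.49, 3.0e-05), where the lowest GDX value is under the floor. Of 9 antigen presentation genes 1 rose, of 14 sinusoidal endothelial markers 3 rose and 2 fell, and of 7 erythroid and megakaryocyte markers 4 fell. No erythroid or megakaryocyte marker was called lower with the surrogate variable or without intact mice 4 to 6. Their summed CPM did not pass the exact permutation test (adjusted p = 0.065). The shares to set beside each count of this paragraph are 30.0% higher and 29.0% lower over all tested genes. Among 9 biliary markers 4 rose and 1 fell, and the one that fell, the keratin Krt23, did so in all 4 fits (3.54, 9.34 and 25.3 against 1.21, 2.03 and 5.07 CPM, -2.27 ± 0.48, 0.00012), while Krt7, a keratin of bile ducts, rose by 1.74 ± 0.48 (0.002). Exocrine pancreas markers summed to 6.45 to 16.8 CPM in intact and 3.89 to 6.36 CPM in GDX mice, and 7 of the list, among them Prss1, Cpa1 and Pnlip, had 0 reads in all 12 mice. Adipocyte and skeletal muscle lists had no call in the 2 and 1 genes tested.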

How the data were processed

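Liver RNA-seq libraries of 12 FCG mice, 6 XY GDX with ovaries removed and 6 XY intact with ovaries, were compared within the whole series, and 36 other libraries served to estimate the spread or as 2 further effects. Per the labels and the study's methods, the authors aligned the reads to GRCm39 and counted them per gene with STAR (version 2.7.10a), and they deposited raw read counts, not normalized, for 55414 Ensembl genes with 4 summary lines of reads given to no gene, which entered no test. The libraries were made with an mRNA kit, and the sources used here name neither the annotation release nor the strand setting, so overlapping genes, antisense genes and near-identical copies may have exchanged reads. Reads mapped to several places are among those given to no gene, so near-identical copies may also be undercounted. Each title names a separate mouse. No 2 mice of an arm agreed within sampling noise: over the 15 GDX pairs the chi-square per gene ran from 8.57 to 23.8, and over the 15 intact pairs from 33.4 to 179.

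Symbols matched 31020 identifiers (56.0%), and 1627 of the 15575 tested genes had none. A mean for each of 8 groups was fitted over 47 mice with edgeR 4.0.16 under R 4.3.3, using TMM scaling, the filterByExpr filter and robust quasi-likelihood dispersions, and p-values were adjusted by Benjamini-Hochberg over all tested genes. One XX mouse with testes, not used in the study's own group values, was left out. Log2 fold changes are GDX over intact, ± gives the SE, and CPM are scaled by TMM. A gene was called at an adjusted p under 0.05. SE were computed from the F statistic. Summed marker CPM and library measures were compared by exact two-sided permutation tests (scipy 1.17.1, numpy 2.4.6 and pandas 2.3.3 under Python 3.11.15), and matplotlib 3.10.9 drew the figures.

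The libraries compared, the 24 pathway and 12 cell type lists and the tests were chosen with earlier results of these data known. Genes named are Xist and 4 Y-linked genes, 15 genes of hormone and lipid regulation, the 10 largest rises and falls with CPM that do not overlap, the highest and lowest called member of each list, and the 6 highest and lowest differences between effects, and some of these are not reported here. Other members are named as examples of a list's count.

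Alternatives were DESeq2 size factors, library totals, the Wald test of DESeq2 (version 1.42.0), limma voom with group weights (limma version 3.58.1), no filter beyond 1 count, a mean of at least 10 counts, all 48 mice, the compared groups alone, a fold change above 1.5, the share of reads outside genes as a covariate, 1 surrogate variable (sva version 3.50.0), loess offsets (span 0.3) for GC content and length, which covered 13153 tested genes (84.4%), and leaving out each mouse. Leaving out the 3 intact libraries lowest in reads outside genes was added after seeing the data. On simulated counts with 200 of 15156 genes changed, the ovariectomy test recovered 97 of 100 genes changed by 2 and 73 of 100 changed by 1 on the log2 scale with 10 false calls, and called 0 genes with no change. For the difference from XX ovariectomy, over 15135 genes, it recovered 90 and 51 of 100. The simulated counts had the same dispersion in every group and no trend with transcript length or read share. In the data the intact libraries varied more and such trends ran through the genes. These figures therefore do not give the error rate or the power in the data.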

Additional observations from a re-analysis of the deposited data

Results flagged for a closer look

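The ovariectomy effect differed from the castration effect of XY mice in 337 genes by the test of the difference itself. On the log2 scale the 11 named differences (ovariectomy minus castration) were 7.47 for Mup7, 7.17 for Mup14, 6.46 for Mup11, 6.33 for Mup1, 5.89 for Mup18, 5.3 for Serpina1e, -7.25 for Cyp2c69, -6.75 for Cyp2c40, -5.95 for Cux2, -5.85 for Cyp2b13 and -5.67 for A1bg. The male-biased genes had the positive and the female-biased genes the negative values.

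In 7 of 200 groups of 6 mice (3.5%) the lowest or highest mouse stood apart from the rest by Dixon's ratio, the gap to its neighbour over the range on the scale of log2(CPM + 0.1), above its 95% critical value for 6 values. Chance alone gives about 1 in 20. In intact mouse 3, Cyp2b13 (72.6 CPM, the others 179 to 279, ratio 0.672) and Cyp17a1 (98.6 CPM, the others 139 to 168, ratio 0.644) were low. Intact mouse 1 was high in Igfals (68.9 CPM, the others 39.2 to 43.95, ratio 0.796), and intact mouse 4 was low in Akt2 (70.5 CPM, the others 80.7 to 84.5, ratio 0.74). Among GDX mice, mouse 1 was low in Csf3r (13.5 CPM, the others 20.4 to 23.6, ratio 0.743), mouse 3 in Cd3d (0.0654 CPM, the others 0.321 to 0.517, ratio 0.71) and mouse 4 in Hsp90b1 (376 CPM, the others 452 to 483, ratio 0.739).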

How the results depend on the processing

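The number of genes called after ovariectomy moved from 9186 to 5681 with GC and length offsets, 3945 without intact mice 4 to 6, 3421 with 1 surrogate variable, 2789 for a fold change above 1.5 and 3 with the share of reads outside genes as a covariate. The 99 genes chosen by the rule followed, with 55, 46, 41, 42 and 0 called instead of 87. With library totals the split of calls became 6724 higher and 3164 lower. Leaving out single mice gave 8293 to 9414 calls. The difference from castration was called in 669 genes with the offsets, 936 with the surrogate variable, 594 with DESeq2, 628 with the covariate, 152 with no filter, 69 for a fold above 1.5, 94 without intact mice 4 to 6, and 163 (without XY GDX mouse 1 with testes) to 542 (without intact XY mouse 1 with testes) when 1 mouse was left out. The difference from ovariectomy in XX mice was called in 2 genes with the surrogate variable, 2 with the offsets, 8 with DESeq2, 1 without intact mice 4 to 6 and 0 to 2 with 1 mouse left out. In the differences of summed marker CPM (GDX minus intact), leaving out 1 mouse gave -37.3 to -22.2 for erythroid, -21884 to -12357 for hepatocyte, -348 to -172 for neutrophil, 87.0 to 154 for sinusoidal endothelial and 82.5 to 117 for stellate markers, each crossing the threshold in at least 1 case, and 5 against 6 mice leave fewer splits to the exact test. Of the 100 genes with values in the text, 90 were called, and 14 changed their call when some mouse was left out. The sign turned for 2 with the offsets (Rpl4 0.15 and Srebf2 -0.071) and for 55 with the covariate, whose values on the log2 scale were Abhd5 0.17, Acaca -0.15, Acads 0.73, Apob -0.24, Apoc1 0.50, Apoc4 0.97, Ccdc88b -0.22, Cd36 0.90, Cd3d 0.29, Cep250 -0.37, Col27a1 -0.45, Csf3r -0.68, Cux2 -0.56, Cyp3a44 3.67, Dnajb9 1.15, Ehhadh 0.18, Eif2s3y 2.81, Fasn -0.48, Ghr 0.15, Gpr17 -1.17, Hadh 0.97, Idi1 0.33, Insr -0.36, Itgax -1.05, Itih3 -0.29, Manf 0.71, Mup20 1.17, Mup3 1.30, Ndufa4 1.14, Neb -1.27, Nfya -0.54, Nqo1 0.70, Nr1d2 0.14, Nr1h3 0.69, Nudt7 0.67, Pcna 0.89, Per2 -0.46, Plin3 0.97, Plin4 -0.33, Prlr -0.33, Rpl22l1 1.24, Rpl4 0.32, Rps12 0.80, Rps24 0.99, Rps25 0.89, Rps27l 0.76, S100a1 0.92, S100a10 1.46, S100a16 0.76, S100a8 0.66, Saa2 0.28, Srebf2 -0.42, Tdo2 1.22, Uty 1.01 and Xist -0.074. The cause was not tested, and the covariate and the arm are nearly the same variable. With DESeq2 size factors, DESeq2's test, all 48 mice, the compared groups alone, voom and both filters no sign turned. Depth limits genes under about 0.230 CPM, where 3 reads are the floor. No paired analysis was possible because each mouse has its own identifier and no replicate number links the groups.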

Other observations

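The 6 intact XY mice with ovaries were not alike in their sex-biased genes. Intact mouse 3 had the highest Mup11 (67.7 CPM), Slco1a1 (97 CPM) and Susd4 (22 CPM) of the 12 mice and the lowest Cyp2b13 (72.6 CPM). Intact mouse 1 had the lowest Mup11 (1.41 CPM) and Slco1a1 (3.62 CPM) of the intact mice and the highest Cux2 (78 CPM) of the 12. The stage of the ovarian cycle at collection is not given in the sources used here. After ovariectomy the same genes spanned narrower ranges, 0.327 to 2.14 CPM for Mup11, 2.55 to 4.78 CPM for Slco1a1 and 35.7 to 77.5 CPM for Cux2. These genes were picked after their values were seen, and no test was made.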
